A study of Mus musculus with 123 samples.

Results

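Voltage-gated sodium channel genes were followed in mouse dorsal root ganglion (DRG) neurons after sciatic nerve transection (SNT), a cut of the main nerve of the hind limb. The 9 genes were chosen by symbol from the 24134 genes of the deposited tables. Of the 9, 6 encode alpha subunits, which form the pore (Scn1a, Scn3a, Scn8a, Scn9a, Scn10a and Scn11a), and 3 encode beta subunits, which sit beside it in the membrane (Scn2b, Scn3b and Scn4b). All 9 were above the low-expression limit used for the pooled libraries.

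Ganglia of the cut side (SNT side) and of the uncut hind limb of the same mice (control side) were dissociated, and somata of small, medium and large diameter were picked by hand. At day 3 after surgery the mice were female F1 offspring of CAST/Eij males and C57BL/6 females, the labels name ganglion L5, and 48 SNT and 22 control neurons were sequenced in reads of 50 bp. At day 7 the mice were C57BL/6 of both sexes, the ganglia were L3 to L5, and 33 SNT neurons (16 from females, 17 from males) and 14 control neurons (7 and 7) were sequenced in reads of 75 bp. Day 3 also had 3 libraries per side from pooled neurons, and by the series' own description 106 neurons per side were lysed together and the lysate was split into 3 (the study's methods give another number of neurons), so these libraries are technical parts of 1 pool per side. All mice were 2 months old, had the nerve of 1 leg cut, so the control side was not from an unoperated animal. The days differed in mouse strain, ganglia and read length as well as in time, and no difference between the days was tested.

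The labels name no animal for any cell, so the cells of 1 side and day count as 1 sample and no test was run on them. After the removal of 11 outlying cells by the authors, 41 SNT and 18 control cells of day 3 and all cells of day 7 were used. Total counts were between 277390 and 1849130 in the kept cells of day 3, between 261351 and 1018545 at day 7 and between 563462 and 2003817 in the pools. Levels are counts scaled to a library total of 1000000 (CPM), so they are shares of a cell's counted RNA, and fewer transcripts of a gene cannot be told apart from more of other RNA. SNT cells were divided by Atf3, a transcription factor gene that marks neurons whose axon was cut, into Atf3-high cells (500 CPM or more) and Atf3-low cells. No cell lay near this limit. At day 3 there were 30 Atf3-high and 11 Atf3-low cells, with 951 CPM in the lowest high cell and 23 CPM in the highest low cell. At day 7 there were 12 and 21, with 704 and 13.9 CPM. The highest control cells held 75.7 CPM at day 3 and 29 CPM at day 7. Neuronal identity was checked by Snap25, Tubb3, Uchl1 and Rbfox3, which together reached at least 4637 CPM in every kept cell.

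In the deposited table the 6 pooled columns carry both a name and an identifier, and these give opposite sides in 6 of 6 cases, while the source label describes all 6 as intact. Sides were taken from the names. Atf3 held 7.78, 20.4 and 10.1 CPM in the 3 libraries named control and 1691, 1452 and 1503 CPM in the 3 named SNT. Under the identifiers every difference reported below for the pools would have the opposite sign.

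Sodium channels open when the membrane depolarises and carry the upstroke of the action potential. Sensory neurons use channels that the puffer fish toxin tetrodotoxin blocks at low concentration (those of Scn1a, Scn3a, Scn8a and Scn9a) and channels that resist it (those of Scn10a and Scn11a), and the latter are typical of nociceptors, the neurons that detect painful stimuli. Beta subunits are single-pass membrane proteins that alter how alpha subunits gate and how many of them reach the surface.

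The letters below show part of the pore-forming sequence of 5 of the 6 alpha subunits. Each line holds 30 bases, 5′ to 3′, of the longest coding transcript of the gene in GENCODE M21 (build GRCm38), around the codon of the first pore loop that is known to set sensitivity to tetrodotoxin, which stands in capitals.
Scn3a: atgactcaagacTACtgggagaacctttac
Scn8a: atgactcaggacTACtgggagaacttatac
Scn9a: atgactcaggacTACtgggagaacctttat
Scn10a: atgacgcaggacTCCtgggaacggctgtac
Scn11a: atgactcaagacTCCtgggagaagctttat
Each transcript matched the search pattern at 1 place with an open reading frame around it. The capitals read TAC in Scn3a, Scn8a and Scn9a and TCC in both toxin-resistant genes. Values that are not whole numbers arise where reads are divided between genes. Across all 123 libraries 84.3% of the values above 0 for Scn9a, 82.6% for Scn3a and 68.5% for Scn1a were not whole numbers, against 22.8% over all genes, and the values of these 3 genes are the less certain for it. Scn10a came next at 46.8%, also above the share over all genes. Scn2b stood at 40.3%, Scn4b at 33.1%, Scn8a at 31.2%, Scn3b at 21.8% and Scn11a lowest at 16%. Which genes shared the reads was not tested.

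Most of the genes lie near another of the 9. On GRCm38, Scn3a (chr2:65457118-65567627), Scn1a (chr2:66270778-66440840) and Scn9a (chr2:66480080-66634962) are on the minus strand of chromosome 2, and Scn10a (chr9:119608456-119719322) and Scn11a (chr9:119753759-119825456) are neighbours on the minus strand of chromosome 9. The beta subunit genes are on the plus strand of the same chromosome, Scn3b at chr9:40269217-40291618, Scn2b at chr9:45117782-45130070 and Scn4b at chr9:45138395-45154152, and Scn8a is at chr15:100869858-101045938. Counts were made on mm9, whose coordinates are not given here. In GENCODE M21 an exon of Scn9a overlaps the antisense gene Gm13629, and exons of the other 8 genes overlap no other gene.

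In the control pool the toxin-resistant pair made up most of the alpha subunit RNA. To compare genes, CPM was divided by transcript length in kilobases. On that scale Scn10a stood at 190 ± 6.39 CPM per kb (SD, n = 3 libraries), Scn11a at 91.1 ± 3.54 and Scn9a, the widespread toxin-sensitive channel of sensory neurons, at 47.2 ± 1.98. Scn1a (11.7 ± 2.53) and Scn8a (7.57 ± 2.24), channels of fast-conducting myelinated axons, followed in that order, with every library of Scn1a above every library of Scn8a, and Scn3a, mainly an embryonic channel, was lowest at 0.532 ± 0.527. Scn10a and Scn11a together held 80.7% of the sum of the 6 (79.5% to 81.6% in the 3 libraries).

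The comparison of the pools asks how injury moved these genes in the neuron population as a whole. Of the 9 genes, 5 changed: Scn10a, Scn11a and Scn1a fell, and Scn2b and Scn4b rose, so all called alpha subunits were lower and all called beta subunits higher on the SNT side. A change was called at a Benjamini-Hochberg adjusted p below 0.05 in edgeR's quasi-likelihood test and a log2 difference beyond 1, which 15.9% of the 13509 genes tested met (8.83% higher and 7.1% lower). Of all calls 55.4% were higher on the SNT side, against 43.6% with library size alone as the scale and 48% in limma, and the median log2 difference of all genes moved from 0.0174 to -0.14 with library size alone. The p-values measure the spread between parts of 1 lysate and not between animals. In bulk samples fewer cells of a type and less RNA per cell cannot be told apart.

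**Figure D1:**
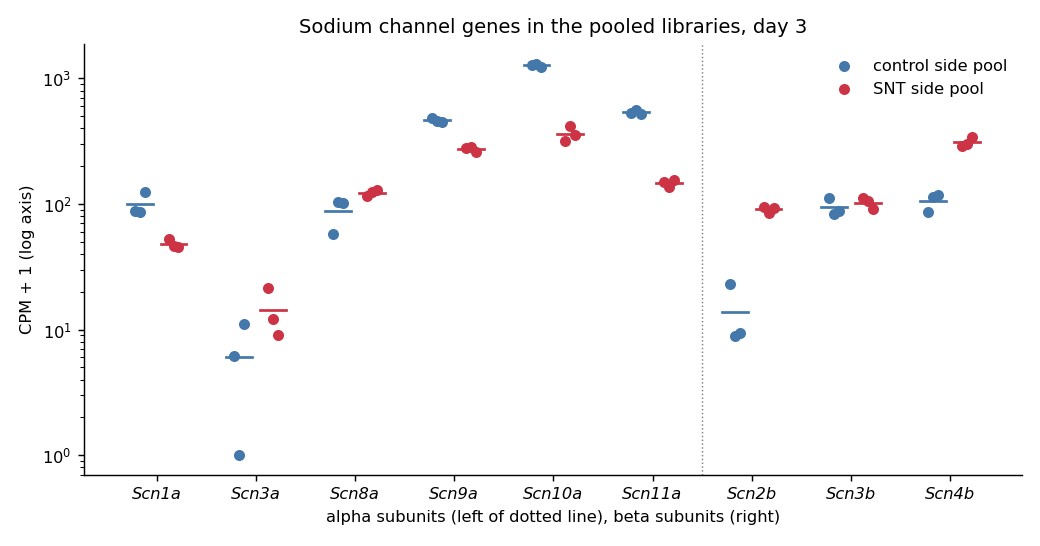
CPM + 1 on a log axis for each sodium channel gene in the 3 control (blue) and 3 SNT (red) pooled libraries of day 3, with bars at the mean of each side. Scn10a, Scn11a, Scn9a and Scn1a are lower in every SNT library than in any control library, and Scn2b, Scn4b and Scn8a are higher in every SNT library.

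Scn10a, the gene of the main toxin-resistant current of nociceptors, held 1276, 1310 and 1225 CPM in the control libraries and 316, 414 and 351 CPM in the SNT libraries. Every SNT library was below every control library, and the gene fell by 1.82 on the log2 scale (SE 0.13, edgeR adjusted p = 9.2e-15). Scn11a, which carries a persistent current near the resting potential of small neurons, held 529, 561 and 522 CPM against 148, 136 and 153 CPM. It fell by 1.88 (SE 0.14, adjusted p = 7.8e-14, edgeR), a size close to that of its neighbour on the chromosome.

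Scn1a held 86.9, 84.9 and 123 CPM in the control libraries and 51.2, 45.2 and 44.7 CPM in the SNT libraries. The groups did not overlap, and the gene fell by 1.04 (SE 0.22, edgeR adjusted p = 3.6e-04), just past the limit. Without control library 3 the difference was -0.87 and without SNT library 3 it was -1.0, both short of a log2 of 1 before rounding. Scn9a held 486, 460 and 449 CPM against 278, 285 and 260 CPM. It passed the p limit (2.7e-05, edgeR) at a log2 difference of -0.76 (SE 0.14) and was therefore not counted as called. With it, 6 of the 9 genes passed the p limit alone, which 24.8% of all genes did.

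Scn8a went the other way in value. Its libraries held 57.1, 102 and 101 CPM on the control side and 114, 124 and 127 CPM on the SNT side, so every SNT library was above every control library, but the log2 difference of 0.49 (SE 0.20) had an edgeR adjusted p of 0.073. Scn3a held 5.19, 0 and 10.1 CPM against 20.6, 11.1 and 7.99 CPM. The groups overlapped, and the log2 difference of 1.5 (SE 0.66) had an edgeR adjusted p of 0.094. Without control library 3 that difference was 2.39 (adjusted p = 0.039) and without SNT library 3 it was 1.78 (adjusted p = 0.049), while the other 4 such fits gave between 0.82 and 1.61 and did not pass. In all, 7 of the 9 genes had groups that did not overlap, as did 37.7% of all genes tested.

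Among the beta subunits, Scn2b held 22.1, 7.92 and 8.40 CPM in the control libraries and 94.3, 83.9 and 92.1 CPM in the SNT libraries. It rose by 2.80 on the log2 scale (SE 0.31, edgeR adjusted p = 2.1e-09), the largest difference of the 9 genes. Scn4b, whose product can block the open pore and so produce resurgent current, held 85.6, 112 and 116 CPM against 290, 301 and 339 CPM and rose by 1.57 (SE 0.17, edgeR adjusted p = 7.0e-10). Both lie close together on chromosome 9. Scn3b held 110, 81.5 and 87.4 CPM against 110, 104 and 89.97 CPM, with overlapping groups and a log2 difference of 0.12 (95% interval -0.28 to 0.52, adjusted p = 0.72), which turned to -0.04 with library size alone as the scale.

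The alpha subunit RNA of the SNT pool was smaller in sum and different in make-up. Per kilobase the 6 genes summed to 348 ± 7.75 CPM in the control libraries and 124 ± 6.37 CPM in the SNT libraries (SD, n = 3 each). Scn10a and Scn11a held 63.2% of the SNT sum (60.9% to 64.7%), below every control library, Scn9a went from 13.6% to 22.5% and Scn8a from 2.17% to 8.59%. Scn10a nevertheless remained the most abundant of the 6 on the SNT side, at 53.8 ± 7.41 CPM per kb, ahead of Scn9a at 27.9 ± 1.28 and Scn11a at 24.7 ± 1.51.

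Other genes of the complex were also followed. Of the further genes Scn2a1, Scn4a, Scn7a and Nalcn, all 4 were tested and 0 called by edgeR, with 2 at an unadjusted p below 0.05. Scn7a, a sodium-sensing channel of glia and neurons, is named after its values were seen, since it passed the p limit in edgeR below the fold limit, at 0.82 (adjusted p = 4.0e-05). In DESeq2 and limma as well the calls among the 9 genes were 2 higher and 3 lower. Over all genes tested, edgeR called 8.83% higher and 7.1% lower. Of 24 genes for proteins that bind, anchor or transport these channels, all were tested, 4 were called higher and 3 lower. Those called higher were Fgf14 (2.93), which binds the alpha subunit tail, Nfasc (1.43), an adhesion molecule of nodes and initial segments, Cntn2 (1.52), an axonal contactin, and S100a10 (1.49), which binds the Scn10a channel and helps it to the surface. Fgf14 was low in level, at 0, 1.13 and 1.68 CPM in the control and 7.49, 6.45 and 8.52 CPM in the SNT libraries (SE 0.97). Those called lower were Fgf13 (-1.39), which also binds the alpha tail, Pdzd2 (-1.59) and Tmem233 (-2.06). S100a10 thus rose from a mean of 640 to 1803 CPM in the libraries in which Scn10a fell.

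The markers of neuron classes moved with the pools too. Of 6 markers of non-peptidergic nociceptors 5 were called lower, among them Mrgprd, with 891 to 1013 CPM in the control and 0 to 2.76 CPM in the SNT libraries. The 4 markers of C-fibre low-threshold mechanoreceptors were all called lower, and 2 of 5 markers of peptidergic nociceptors were. Of 7 markers of large myelinated neurons 3 were called higher. Ntrk2, also among those 7, was lower on the SNT side short of the fold limit (log2 difference -0.78, edgeR adjusted p = 2.2e-04). Summed, the first list went from between 2835 and 2984 CPM to between 427 and 512 CPM, and the large myelinated list from between 743 and 772 CPM to between 1026 and 1132 CPM. Of 10 glial markers 2 were called higher and 5 lower, with sums of 12280 to 14950 CPM on the control side and 5710 to 6474 CPM on the SNT side. The 4 neuronal genes named above summed to 6352 to 7266 CPM on the control side and 12060 to 13810 CPM on the SNT side. They did not move together. Tubb3 went from a mean of 2937 to 9681 CPM and Uchl1 from 1637 to 2548 CPM. Snap25 went down from 1653 to 1208 CPM and Rbfox3 from 116 to 66.3 CPM. Of 8 immune markers 2 were tested and 1 was called higher, at sums of at most 9.57 CPM. The part of these shifts in the sodium channel differences was not tested in the pools.

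Single neurons of day 3 show the same genes cell by cell. Over the mean of cells, 5 of the 9 genes were lower on the SNT side past a fold of 2 (Scn10a, Scn11a, Scn9a, Scn1a and Scn2b) and 0 were higher. A gene was past the fold where the log2 ratio of mean CPM + 1 lay beyond 1 and the higher mean reached 10 CPM, which was met by 11.9% of 9736 genes (5.82% higher and 6.07% lower). The median log2 ratio was -1.15 over the 9 genes and -0.05 over all genes.

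**Figure D2:**
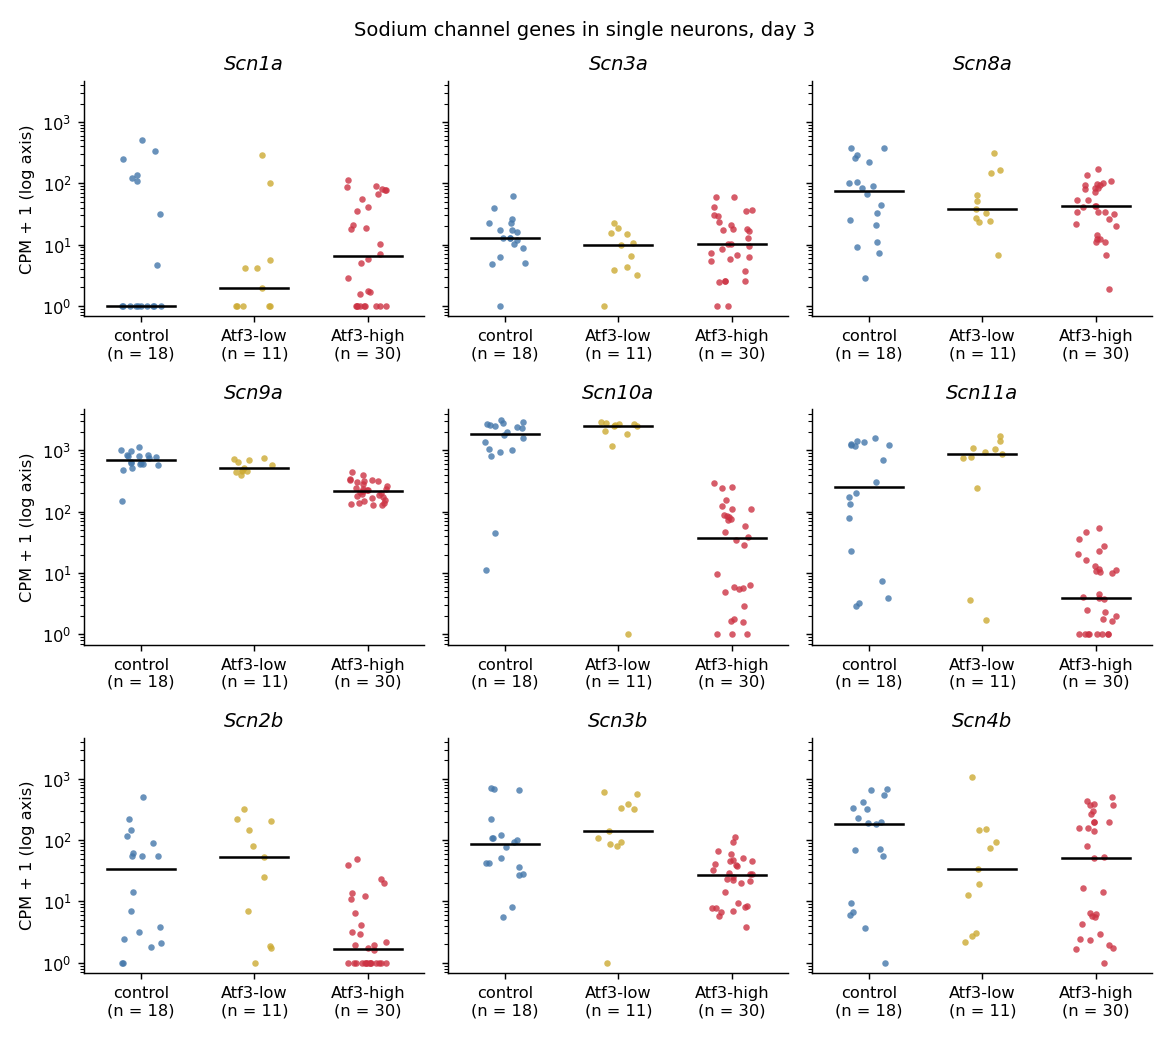
CPM + 1 on a log axis for each gene in single neurons of day 3, 18 control, 11 Atf3-low and 30 Atf3-high cells, with a black bar at the median. Scn10a is at a median of 1858 CPM in control, 2475 CPM in Atf3-low and 35.6 CPM in Atf3-high cells, and Scn9a is above 0 in every cell.

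The division by Atf3 separated the SNT cells for the toxin-resistant genes. Scn10a had a lowest, median and highest value of 10.2, 1858 and 3112 CPM over the control cells. Over Atf3-low cells these were 0, 2475 and 2888 CPM, and over Atf3-high cells 0, 35.6 and 297 CPM. All but 1 of the 11 Atf3-low cells and all but 2 of the 18 control cells held more Scn10a than every Atf3-high cell. The means were 1781 ± 976 CPM (SD over 18 cells) in control, 2160 ± 873 CPM in Atf3-low and 64.0 ± 80.8 CPM in Atf3-high cells, and the log2 ratio of Atf3-high to control cells was -4.78.

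Scn11a followed the same order. Its lowest, median and highest values were 1.90, 251 and 1593 CPM in control cells, 0.728, 870 and 1730 CPM in Atf3-low cells and 0, 2.94 and 53.1 CPM in Atf3-high cells. At 10 CPM or more it was seen in 10 of 30 Atf3-high cells (33.3%, exact binomial 95% interval 17.3% to 52.8%) and in 14 of 18 control cells (77.8%, 52.4% to 93.6%). These intervals treat cells as independent draws and do not cover differences between animals. The log2 ratio of Atf3-high to control was -5.82, the largest of the 9 genes in that contrast, and that of Atf3-low to control cells was 0.42.

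Scn9a was present in every kept cell of day 3 and moved as a block. It ranged from 148 to 1157 CPM in control cells (mean 712 ± 229), from 400 to 743 CPM in Atf3-low cells (mean 557 ± 126) and from 125 to 446 CPM in Atf3-high cells (mean 232 ± 83.9). Of the 30 Atf3-high cells, 29 lay below every Atf3-low cell. Its log2 ratio was -1.26 between Atf3-high and Atf3-low cells and -0.35 between Atf3-low and control cells.

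The alpha subunit sum per kilobase was separate in value between these groups. It ran from 21.1 to 75.0 CPM per kb in the Atf3-high cells, from 111 to 757 in control cells and from 120 to 754 in Atf3-low cells, so no Atf3-high cell reached the lowest of the others. For the toxin-sensitive genes alone the means were 33.1 ± 13.5 CPM per kb in Atf3-high, 68.9 ± 24.6 in Atf3-low and 93.9 ± 22.9 in control cells. For Scn10a and Scn11a together they were 11.2 ± 13.5, 460 ± 210 and 369 ± 239. The pair held at least 50% of the sum in 16 of 18 control cells, 10 of 11 Atf3-low cells and 4 of 30 Atf3-high cells. In Atf3-high cells Scn9a held 53.3% of the mean sum, against 15.6% in control cells.

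Scn1a, Scn8a and Scn4b showed a wide spread within each group at day 3. Scn1a was at 0 in 10 of 18 control cells and reached 499 CPM in the highest, and its means were 81.6 ± 142 CPM in control, 35.9 ± 87.6 CPM in Atf3-low and 26.6 ± 35.5 CPM in Atf3-high cells. The medians ran the other way, at 0, 0.931 and 5.42 CPM, so the direction depends on which is taken. Scn8a had means of 116 ± 128, 80.3 ± 92.7 and 53.3 ± 42.7 CPM, and Scn4b of 221 ± 229, 145 ± 311 and 130 ± 157 CPM. Scn3a stood at 16.2 ± 14.5, 9.06 ± 7.03 and 15.7 ± 16.1 CPM, with 8 of 30 Atf3-high cells above every Atf3-low cell.

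Scn2b and Scn3b were lower in Atf3-high cells by a wider margin. Scn2b had a lowest, median and highest value of 0, 33.4 and 506 CPM in control cells, 0, 51.7 and 317 CPM in Atf3-low cells and 0, 0.702 and 48 CPM in Atf3-high cells. Its log2 ratio of Atf3-high to control cells was -3.43, and 7 of 30 Atf3-high cells held 10 CPM or more. Scn3b had 4.57, 84.8 and 698 CPM in control cells, 0, 139 and 619 CPM in Atf3-low cells and 2.78, 25.7 and 114 CPM in Atf3-high cells, with a ratio of -2.44. In all, 7 of 9 genes were lower past the fold in Atf3-high than in control cells (19.3% of 9847 genes past it in either direction, 7.97% higher and 11.3% lower), 5 of 9 were lower in Atf3-high than in Atf3-low cells (19.6% of 9753 genes, 8.93% higher and 10.6% lower), and 1, Scn1a, was lower in Atf3-low than in control cells (3.67% of 9514 genes, 1.33% higher and 2.33% lower). None was higher past the fold in these 3 contrasts, for which the means over cells have no test.

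Pools and cells of day 3 differed in direction for Scn2b and Scn4b. Scn2b was at 12.8 ± 8.02 CPM in the control pool and 90.1 ± 5.49 CPM in the SNT pool (SD over 3 libraries), but at 73.9 ± 124 CPM in the control cells and 29.9 ± 68.8 CPM in the SNT cells. Scn4b was at 104 ± 16.5 and 310 ± 25.6 CPM in the pools and at 221 ± 229 and 134 ± 205 CPM in the cells. Scn8a, higher in every SNT library, had a log2 ratio of -0.93 in the cells. The direction in the cells was the same with all 70 cells of day 3, outliers included (-1.19 for Scn2b, -0.60 for Scn4b and -0.62 for Scn8a), and with summed counts (-1.48, -0.30 and -0.47). Among cells below 10 CPM of P2rx3, with 2 control cells, Scn4b was at 0.64 and Scn8a at 0.49, the sign of the pools, and Scn2b at -4.90. Those 2 control cells held 1382 and 3112 CPM of Scn10a, against a median of 2.93 CPM in the 14 SNT cells. This subset therefore does not compare like cells. Scn10a, Scn11a and Scn9a were lower on the SNT side in both the pools and the cells, by means and by medians over cells. Scn1a was lower in the pools and in the mean of cells. With medians over cells its log2 ratio was 2.05, the opposite direction, and it was at 0 in 10 of 18 control cells. The reason for the difference between pools and cells was not tested.

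**Figure D3:**
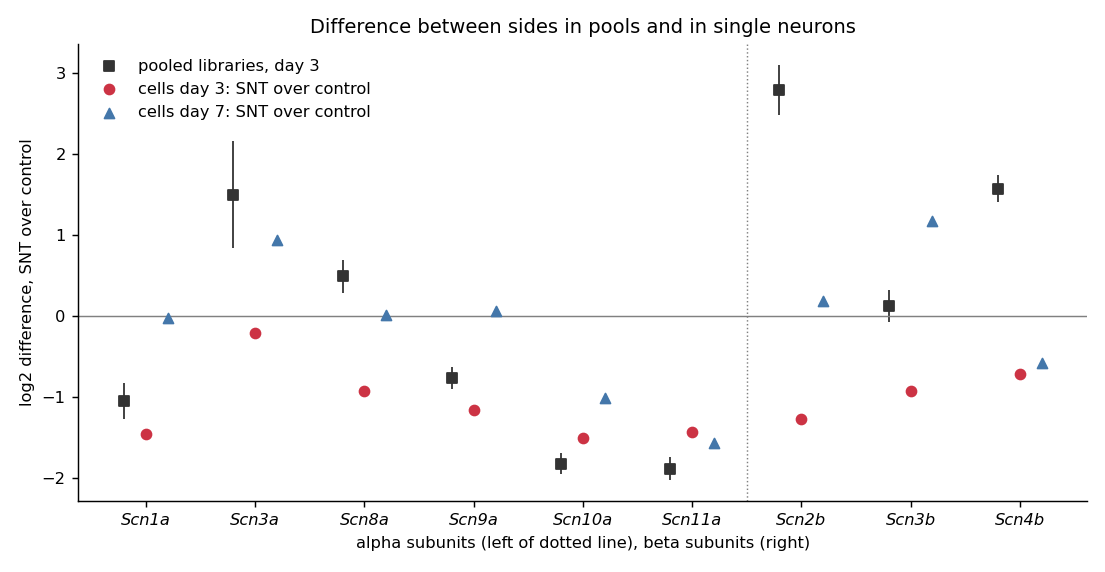
Log2 difference, SNT over control, of each gene in the pooled libraries of day 3 (squares, edgeR fit with bars of 1 SE), in single cells of day 3 (circles) and in single cells of day 7 (triangles), the cell values being ratios of mean CPM + 1 with no error given. Scn10a and Scn11a are below 0 in all 3, the day-7 value of Scn11a resting on 1 control cell, while Scn2b is at 2.80 in the pools and -1.28 in the day-3 cells.

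Neurons of all classes were picked, and the cells were also divided by P2rx3, a receptor of ATP on nociceptors, at 10 CPM. P2rx3 was itself lower in the SNT pool (log2 difference -1.23, edgeR adjusted p = 5.3e-10), so the division does not hold cell type fixed. Of the control cells of day 3, 16 of 18 were above the limit, as were 17 of 30 Atf3-high cells. Among cells above it Scn10a had a mean of 1722 ± 973 CPM in 16 control cells, 2190 ± 915 CPM in 10 Atf3-low cells and 111 ± 80.4 CPM in 17 Atf3-high cells, and 14 of those 16 control cells held more than every Atf3-high cell. Scn10a was nearly absent from the 13 Atf3-high cells below the limit, with a highest value of 8.58 CPM.

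Those 13 cells carried another set of channels. Scn1a was at 58.7 ± 32.4 CPM in them and 2.10 ± 4.31 CPM in the 17 Atf3-high cells above the limit, Scn8a at 86.5 ± 40.6 against 27.9 ± 21.9 CPM, and Scn4b at 206 ± 132 against 72.9 ± 153 CPM. Scn9a did not follow the division, at 226 ± 81.5 and 236 ± 87.9 CPM. Only 2 control cells fell below the limit. Both were at 0 CPM of Scn1a, and their means were 65.4 ± 47.8 CPM of Scn8a and 129 ± 81.2 CPM of Scn4b. The means of all 3 genes were thus lower in these 2 cells than in the 13 Atf3-high cells. For Scn8a and Scn4b both control cells lay within the range of the 13. The 2 control cells held 1382 and 3112 CPM of Scn10a, against at most 8.58 CPM in the 13, so the 2 sets are not alike in kind. Over all cells the control means of Scn1a, Scn8a and Scn4b were the higher ones.

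Co-variation across cells was also described without a limit, as Spearman's rho over cells that share preparation and sequencing, without a test. Over the 18 control cells of day 3 Scn1a and Scn8a went together (0.81) and against Scn10a (-0.85 and -0.80), while Scn10a and Scn11a went together (0.705). Scn4b went with Scn8a (0.61) and against Scn3b (-0.77). Over the 30 Atf3-high cells, where Scn10a was low, rho was 0.75 for Scn1a with Scn8a. Scn1a went with Nefh, the heavy neurofilament of myelinated neurons, at 0.87, Scn8a with Nefh at 0.84 and Scn10a with Scn11a at 0.69. Scn9a had rho between -0.30 and 0.38 there with the other sodium channel genes and the marker genes compared. The remaining genes were not compared within these cells alone. Apoe, a transcript of satellite glia, correlated with Scn8a at 0.83 and with Scn10a at -0.79 in the control cells, and its part in these values was not tested.

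The genes whose levels were nearest to each channel were sought over the 59 kept cells of day 3. The search used Spearman's rho among 9277 genes with a mean of 10 CPM or more. These cells put control, Atf3-low and Atf3-high cells together, with Scn10a means of 1781, 2160 and 64.0 CPM. How far a high rho rests on differences between these groups was not tested. Scn10a was nearest to Gnao1 (0.93), Kcnt1 (0.91) and Tshz2 (0.89), and Scn11a to Scn10a itself (0.84), Kcnt1 (0.84) and Samd14 (0.84). Kcnt1 encodes a sodium-activated potassium channel. Scn9a had Dip2c and Bhlha9 among its nearest 3 (both 0.81), and Scn8a was nearest to Nrcam (0.86), a cell adhesion molecule that binds at nodes of Ranvier, Sh3gl2 (0.84) and Clec2l (0.83). Scn1a was nearest to Ckmt1, Acsl6 and Mdh1 (0.82, 0.82 and 0.81), and Scn4b to Cntn1 (0.81), Cplx1 and Rimkla (both 0.77). Scn3b was nearest to Atf2, Mal2 and Ocrl (0.775, 0.764 and 0.756), Scn2b had Tspan2 and Usp31 among its nearest 3 (both 0.63), and Scn3a was nearest to Myo18a, Dcbld2 and Alcam (0.59, 0.55 and 0.52).

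At day 7 the toxin-resistant genes were nearly absent from Atf3-high cells. Scn10a had a lowest, median and highest value of 0, 616 and 3040 CPM over 14 control cells and 0, 1.20 and 2021 CPM over 21 Atf3-low cells. Over the 12 Atf3-high cells these were 0, 0 and 29.1 CPM. It was at 10 CPM or more in 1 of 12 Atf3-high cells (8.33%, exact binomial 95% interval 0.211% to 38.5%), 7 of 14 control cells (50.0%, 23% to 77%) and 10 of 21 Atf3-low cells (47.6%, 25.7% to 70.2%). Scn11a reached 10 CPM in 0 of 12 Atf3-high cells (exact binomial 95% interval up to 26.5%, with cells taken as independent draws). Its summed counts there came to 5. In control cells its mean of 102 ± 305 CPM rested on 1 cell at 1155 CPM, and the median was 4.45 CPM.

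**Figure D4:**
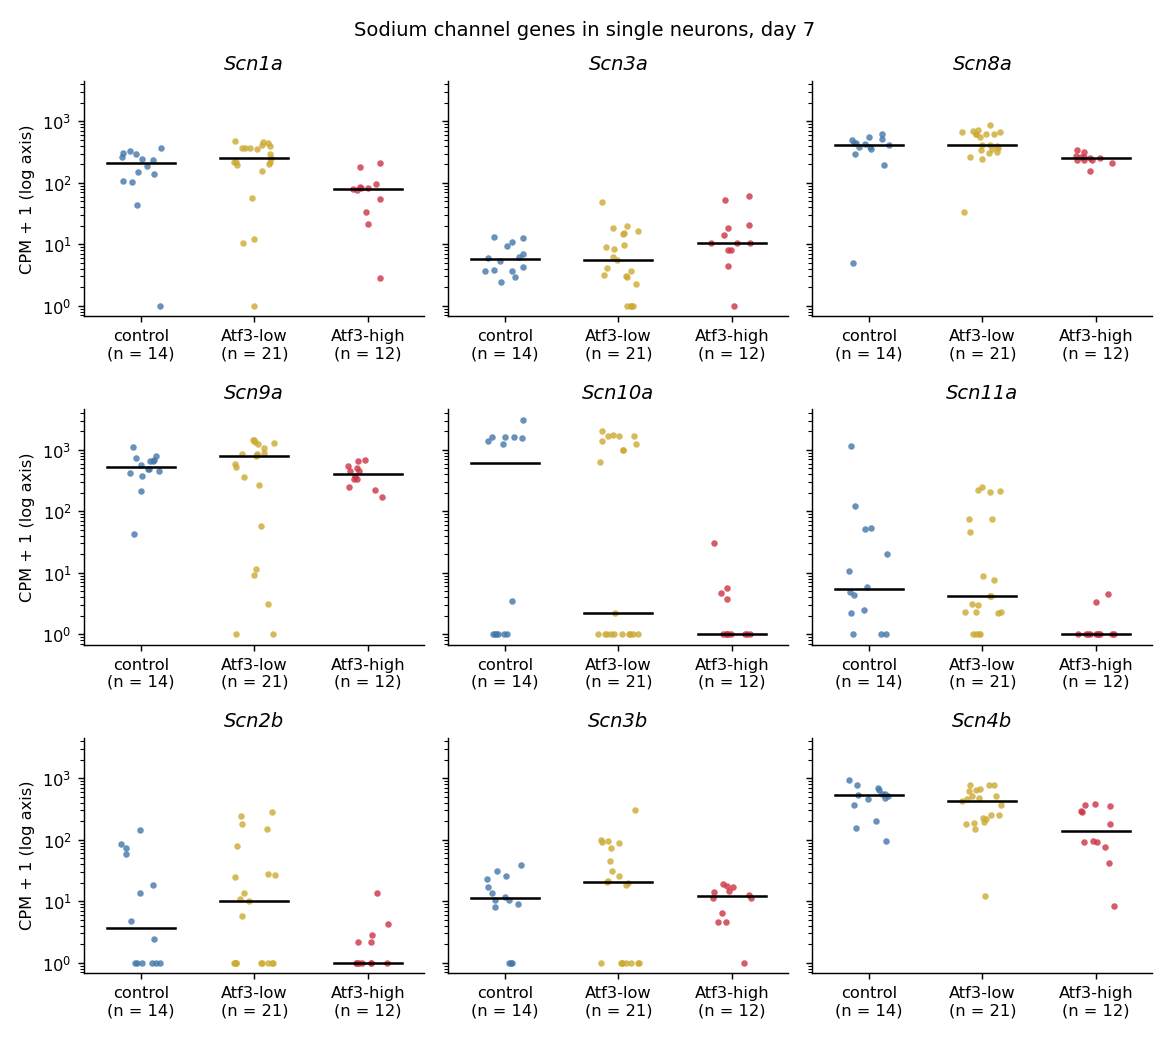
CPM + 1 on a log axis for each gene in single neurons of day 7, 14 control, 21 Atf3-low and 12 Atf3-high cells, with a black bar at the median. Scn10a and Scn11a have a median of 0 in Atf3-high cells, while Scn9a and Scn8a were at 156 CPM or more in every Atf3-high cell.

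Toxin-sensitive genes stayed present in those cells. Scn8a ranged from 156 to 336 CPM in Atf3-high cells (mean 252 ± 46.4), with means of 395 ± 155 CPM in control and 483 ± 207 CPM in Atf3-low cells. Scn9a was at 416 ± 166 CPM in Atf3-high, 549 ± 259 CPM in control and 663 ± 529 CPM in Atf3-low cells. Scn1a was at 82.8 ± 60.2, 198 ± 111 and 260 ± 152 CPM in the same order. All 12 Atf3-high cells had under 10% of their alpha sum per kilobase in Scn10a and Scn11a, as did 6 of 14 control and 11 of 21 Atf3-low cells, and Scn9a and Scn8a held 55.2% and 28.8% of their mean sum.

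Scn3a was the single gene higher past the fold in Atf3-high than in control cells at day 7, by means and not by medians (log2 ratio 0.87) or in females alone (0.52). Its values were low, 0 to 59.9 CPM with a mean of 17.3 ± 18.9 CPM in Atf3-high cells and 1.48 to 12.4 CPM with a mean of 5.53 ± 3.62 CPM in control cells, and 5 of 12 Atf3-high cells were above every control cell. The 4 Atf3-high cells from males had a mean of 35.1 ± 24.5 CPM and the 8 from females 8.37 ± 5.43 CPM. Of the beta subunits, Scn4b was at 190 ± 140 CPM in Atf3-high, 499 ± 238 CPM in control and 414 ± 233 CPM in Atf3-low cells, and Scn2b at 1.68 ± 3.63, 28.5 ± 45.1 and 50.0 ± 87.3 CPM. Scn3b was at 10.3 ± 5.89, 13.4 ± 11.4 and 43.7 ± 68.8 CPM, higher past the fold in Atf3-low than in control cells.

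Counted over contrasts of day 7, 5 of 9 genes were lower and 1 higher in Atf3-high than in control cells (22.9% of 9683 genes past the fold in either direction, 8.78% higher and 14.1% lower), and 6 were lower and 0 higher in Atf3-high than in Atf3-low cells (19.9% of 9639 genes, 7.39% higher and 12.5% lower). Between Atf3-low and control cells 0 were lower and 1 higher (5.45% of 9606 genes, 3.2% higher and 2.27% lower), and between all SNT cells and control cells 2 were lower, Scn10a and Scn11a, and 1 higher, Scn3b (7.66% of 9622 genes, 4.45% higher and 3.2% lower). For Scn10a that last ratio was -1.01, at the limit. Without the control cell of 1155 CPM of Scn11a, left out after seeing the data, the ratio of Scn11a turned from -1.57 to 0.67 and 0 genes were lower between all SNT and control cells. With medians over cells these counts moved to 0 higher and 1 lower, the 6 lower in Atf3-high than in Atf3-low cells became 2, and the 5 lower in Atf3-high than in control cells became 3.

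**Figure D5:**
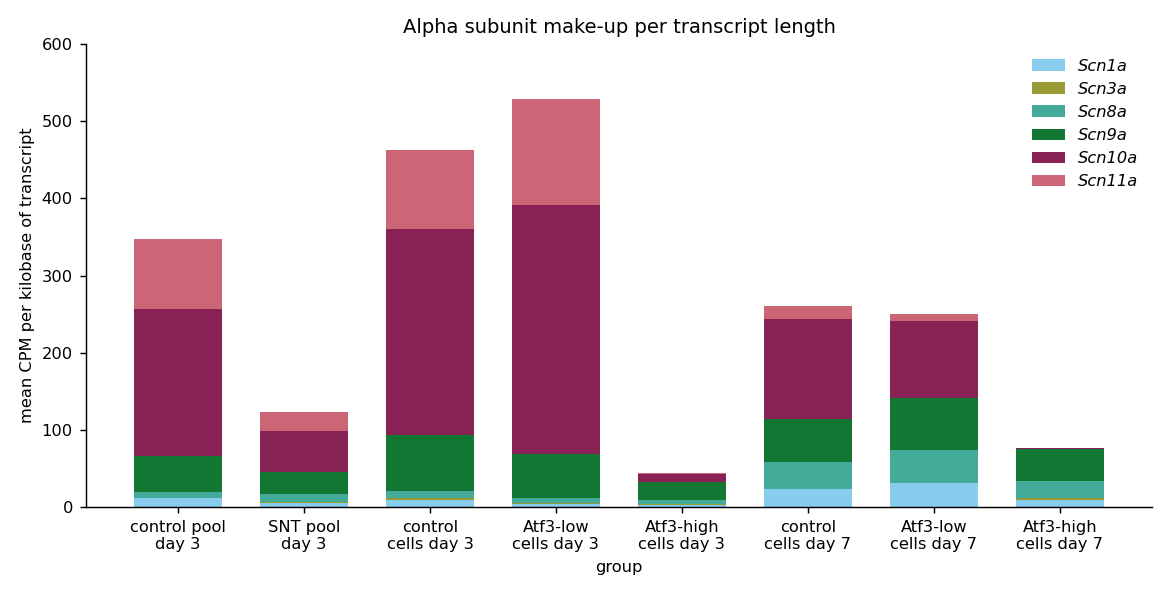
Stacked bars from 0 of the mean CPM per kilobase of transcript of the 6 alpha subunits in the control and SNT pools of day 3 and in control, Atf3-low and Atf3-high single cells of each day. The bar of Atf3-high cells is the lowest of its day at both days, and Scn9a is its largest part.

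Marker levels of neuron classes are given beside these values. Summed over 7 markers, large myelinated neuron transcripts had medians at day 7 of 3420 CPM in control, 2548 CPM in Atf3-high and 4557 CPM in Atf3-low cells. The 6 non-peptidergic markers had medians of 157, 139 and 100 CPM in control, Atf3-high and Atf3-low cells of day 7. Mrgprd was at 0 in all 33 SNT cells and in 13 of 14 control cells. Of the 5 peptidergic markers, Calca was at a median of 84.4 CPM in control, 66.3 CPM in Atf3-low and 0 in Atf3-high cells. Scn10a tracked Calca at day 7 across the 21 Atf3-low cells (rho 0.90) and the 14 control cells (0.77). In the 12 Atf3-high cells rho was 0.63, but Scn10a was at 0 in 8 of them and Calca in 7. At day 3 rho was 0.25 in the 18 control, 0.02 in the 11 Atf3-low and 0.79 in the 30 Atf3-high cells. The 10 glial markers had median sums at day 7 of 4515 CPM in control, 713 CPM in Atf3-high and 1268 CPM in Atf3-low cells, and at day 3 of 3713, 5181 and 3249 CPM. Single cells lay between 1.74 and 13640 CPM. The 8 immune markers were above 100 CPM in 1 Atf3-high cell of day 3 and 2 SNT cells of day 7. The part of cell class or glial transcripts in the values of these channels was not tested.

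The division by P2rx3 at day 7 left 1 Atf3-high cell above 10 CPM, with 29.1 CPM of Scn10a. The other 11 held between 0 and 4.64 CPM of it. Below the limit the 6 control cells also had little Scn10a, with a median of 0 and a highest value of 1229 CPM, and the 12 Atf3-low cells had a median of 0 and a highest value of 1680 CPM. In these cells Scn1a had means of 90.1 ± 57.2 CPM in 11 Atf3-high, 266 ± 91.8 CPM in 6 control and 331 ± 134 CPM in 12 Atf3-low cells, and Scn8a of 260 ± 37.2, 459 ± 116 and 579 ± 192 CPM. Both were thus lower in value in Atf3-high cells among neurons with little P2rx3.

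Sex was recorded for the mice of day 7. Among control cells Scn10a had a mean of 630 ± 794 CPM in 7 cells from females and 1094 ± 1155 CPM in 7 from males, and among SNT cells 150 ± 458 CPM in 16 and 689 ± 788 CPM in 17. These SDs over cells exceed or come close to the differences. Of the 12 Atf3-high cells 8 came from females, in which Scn8a was at 271 ± 36.1 CPM, and 4 from males, at 213 ± 43.2 CPM.

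Because Scn10a and Scn11a moved together, their promoters were searched for binding motifs of the Atf3 family. Shown are the RefSeq windows of 250 bases before to 50 after the start on GRCm38.p6, minus strand, Scn10a at chr9:119718983-119719282 and Scn11a at chr9:119825407-119825706, with matches to the ATF/CREB core TGACG, on either strand, in capitals.
Scn10a: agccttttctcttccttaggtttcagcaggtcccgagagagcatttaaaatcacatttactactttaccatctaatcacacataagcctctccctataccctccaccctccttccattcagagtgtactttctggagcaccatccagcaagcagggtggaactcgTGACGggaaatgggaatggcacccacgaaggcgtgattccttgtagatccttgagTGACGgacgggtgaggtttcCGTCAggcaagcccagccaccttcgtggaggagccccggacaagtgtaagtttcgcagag
Scn11a: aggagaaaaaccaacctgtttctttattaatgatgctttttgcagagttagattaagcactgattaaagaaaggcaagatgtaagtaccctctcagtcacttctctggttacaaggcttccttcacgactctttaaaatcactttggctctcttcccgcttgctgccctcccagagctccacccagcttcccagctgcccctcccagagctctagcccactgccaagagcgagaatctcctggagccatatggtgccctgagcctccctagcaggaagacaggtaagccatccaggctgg
The core was found in the Scn10a window and in no other of the 8 windows that the table holds for 7 of the 9 genes (none for Scn3a and Scn3b), and 20.8% of all 32851 promoters of the same length hold it. The longer AP-1 motif TGACTCA or TGAGTCA is in 5.20% of all promoters and in 0 of the 8, and the CRE motif TGACGTCA in 1.79% and in 0 of the 8. A match of letters is no evidence that a factor binds there.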

How the data were processed

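The authors aligned reads with Bowtie2 to mm9 and estimated expression with RSEM, demultiplexed with CASAVA 1.8.2 and left out ribosomal RNA. Although the deposited tables are named for TPM, their values are expected counts: totals lie between 223967 and 2003817 and 60.7% to 93.6% of the values above 0 per library are whole within 1e-09. Pooled counts were rounded and fitted with edgeR 4.0.16 in R 4.3.3 (quasi-likelihood, TMM, mean over libraries of 1 CPM or more, prior count 0.125, Benjamini-Hochberg adjustment over 13509 genes). Alternatives used DESeq2 1.42.0, limma 3.58.1, other scalings and filters, thinning and each library left out. Cells were summarised in Python 3.11.15 (numpy 2.4.6, scipy 1.17.1, pandas 2.3.3, matplotlib 3.10.9) as mean CPM with SD over cells and log2 ratios with a pseudocount of 1, with no test. Smart-seq2 libraries carry no molecular identifiers, so amplified copies count as reads. Exact binomial intervals on shares of cells treat cells as independent draws and do not cover differences between animals. Genes named are the 9 members, called genes among further subunits and partners, the 3 genes nearest to each member (a few genes and 1 sequence are not reported here) and markers. Members and lists were chosen with earlier results of these data known.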

Additional observations from a re-analysis of the deposited data

How the results depend on the processing

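In the pools, 2 sodium channel genes were called higher and 3 lower with RLE factors, library size alone, other filters, thinning, DESeq2 and limma. All genes called numbered 2154, and between 1649 (mean of 10 CPM or more) and 2243 (library size alone) over the alternatives. With each library left out in turn they numbered 1884 to 2148, with 2 to 3 sodium channel genes higher and 2 to 3 lower, and the calls of Scn1a and Scn3a changed without control library 3 or SNT library 3. With the library number as a replicate block 2008 genes were called, 2 and 3 of them sodium channel genes. Same-numbered libraries did not deviate together (r 0.06, -0.02 and -0.01), so the numbers pair nothing. Scn8a passed the p limit with that block (0.52, adjusted p = 0.0487, edgeR) and without control library 2 (0.65, adjusted p = 0.0278). Scn3b turned to -0.04 with library size alone and -0.03 in limma. In the cells of day 3 the ratio of Scn1a turned with medians, to 2.05 for SNT, 2.68 for Atf3-high and 0.95 for Atf3-low over control cells, the last with 1 gene higher past the fold. Below 10 CPM of P2rx3, with 2 control cells, Scn1a turned to 5.79 for SNT and 5.90 for Atf3-high, and Scn8a to 0.40 for Atf3-high, over control cells, the 5.79 and 5.90 being set by the pseudocount since Scn1a was at 0 in both control cells. There 1 gene was higher in each of SNT over control, Atf3-high over Atf3-low and Atf3-high over control cells. At day 7 Scn11a, SNT over control, turned to 0.20 below that limit, 0.13 in females and 0.67 without control cell 14, a setting chosen after seeing the data, under which 0 genes were lower for SNT and 3 higher for Atf3-low over control cells. Counts past the fold at day 7, SNT over control, were 0 higher and 1 lower with medians, a pseudocount of 10 or thinning to 200000 counts, 2 and 0 at 10 CPM of P2rx3 or more, 0 lower below it, and 2 and 1 in males. For Atf3-high over Atf3-low, 2 were lower with medians, and 1 was higher on either side of the P2rx3 limit and in males. For Atf3-high over control, 0 were higher and 3 lower with medians, 2 lower below the P2rx3 limit and 0 higher in females. For Atf3-low over control, 0 were higher and 1 lower with medians, 2 and 1 in females and in males, and 1 lower with an Atf3 limit of 1000 CPM or without cells above 100 CPM of immune markers, a setting chosen after seeing the data. The causes were not tested.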
